A study of Mus musculus with 13 samples.

Results

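Hpse, Colq and Agpat4 were described across mouse proprioceptors, the sensory neurons of dorsal root ganglia (DRG) that innervate muscle spindles and Golgi tendon organs. The 3 genes were taken by name out of 50508 genes listed for every plate, because the study used them as markers of cluster 1 of its adult neurons. Single fluorescent neurons were sorted into 13 plates of 96 wells, and unique molecular identifiers (UMIs, each standing for 1 captured transcript) were counted per gene. The authors' annotation kept 586 of 1248 wells as neurons, and all levels below are over these neurons unless stated. There were 2 plates with 169 kept neurons at e14.5, 2 plates with 55 at p0, 4 plates with 154 at p12 and 5 plates with 208 in the adult, at an age past postnatal day 56. The adult, p12 and p0 mice were PV:Cre+/-;Rx3:Flp+/-;Ai65+/- (PVRx3:tdT), in which tdTomato marks any cell that has expressed both Parvalbumin and Runx3 at some stage. The e14.5 embryos carried TrkC:tdTomato, which also labels Runx3-positive cells that are not proprioceptors, so that at e14.5 stage and reporter cannot be told apart. Animals of both sexes were used. The animals of a plate are not given, and the adult neurons were sampled in fewer experiments than there are plates, so that some adult plates share an experiment. SDs and p-values therefore measure the spread between plates, which may in part be technical.

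Hpse encodes heparanase, the endoglycosidase that cuts the heparan sulfate chains of proteoglycans at the cell surface and in the extracellular matrix. Colq encodes the collagen-like tail that anchors acetylcholinesterase in the synaptic basal lamina of muscle, where it binds the heparan sulfate proteoglycan perlecan. It is an anchoring subunit and not itself an enzyme. Agpat4 encodes an acyltransferase that turns lysophosphatidic acid into phosphatidic acid, a precursor of membrane phospholipids and triglycerides.

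In RefSeq, on build GRCm38.p6, Hpse lies on chromosome 5 from 100679484 to 100719716, Colq on chromosome 14 from 31523082 to 31577863 and Agpat4 on chromosome 17 from 12118485 to 12219649, and all are protein coding. The 250 bases before a transcript start were read for Hpse and Agpat4, the pair that RefSeq windows were given for, and are shown because both genes were high in the same adult and p12 clusters. The Hpse window lies directly outside the span given for its gene. That of Agpat4 lies inside the span of its gene, before a later transcript start. The window of Hpse is chr5:100719717-100719966 on the minus strand and that of Agpat4 is chr17:12119034-12119283 on the plus strand, each written 5′ to 3′ with matches to AGGAAG in capitals.
Hpse: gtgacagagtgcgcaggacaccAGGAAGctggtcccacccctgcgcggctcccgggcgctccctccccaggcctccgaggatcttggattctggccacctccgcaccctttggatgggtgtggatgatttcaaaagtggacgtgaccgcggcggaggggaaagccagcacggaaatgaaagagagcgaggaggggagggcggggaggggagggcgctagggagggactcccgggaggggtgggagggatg
Agpat4: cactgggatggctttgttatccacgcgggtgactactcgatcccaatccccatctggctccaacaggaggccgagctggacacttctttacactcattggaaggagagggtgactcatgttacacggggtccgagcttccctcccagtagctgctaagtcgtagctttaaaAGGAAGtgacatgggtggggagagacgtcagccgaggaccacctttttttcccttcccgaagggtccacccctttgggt
AGGAAG holds the core bound by ETS factors, the family of Etv1. It was searched on both strands, reading CTTCCT on the other one. It occurred 1 time in each window, beginning 228 bases before the start in Hpse and 79 bases before it in Agpat4. Of 32851 windows of the same length, 29.5% held it. The core of RUNX factors, TGTGGT, was searched likewise, which reads on the other strand as ACCACA. It was found in neither window and in 14.05% of all windows. These letters were chosen with the windows in view, and a match is a description of the sequence alone.

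Plates differed in depth and in the clusters they held. A plate held 915750 to 5554918 UMIs over its 96 wells, and the kept neurons had a median of 10604 UMIs at e14.5, 41058 at p0, 24462.5 at p12 and 36926.5 in the adult. The p12 neurons of clusters 2 and 3 came only from plates 1 and 2 (12 and 13 kept neurons), and those of clusters 1, 4 and 5 only from plates 3 and 4 (67 and 62). In the adult, clusters 2 and 4 lay only on plates 1 and 2, and cluster 3 mainly on plates 3 to 5. The proprioceptor markers Pvalb, Ntrk3 and Etv1 had a UMI in at least 89.3% of the kept neurons of every stage, whereas Whrn had one in 1.18% at e14.5 and in 58.2% to 87.0% later. Runx3 had one in 63.3% at e14.5, 80.0% at p0, 40.3% at p12 and 72.6% in the adult. The paper proposes that e14.5 clusters 3 and 4 (34 and 6 neurons) are TrkC-labelled neurons other than proprioceptors. The same 96 well barcodes serve every plate. Apoe, a satellite glial gene, averaged 3.11 CPM (UMI counts scaled to the same total in every neuron) in the kept neurons at e14.5 and 166 to 327 CPM later, and its part in the levels below was not tested. The study's methods state an upper limit of 20 CPM of Apoe for clustered cells, but in the deposited counts 99.0% of the kept adult neurons, 81.8% at p0, 44.2% at p12 and 4.14% at e14.5 were at or over it.

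In the adult, all 3 genes were high in cluster 1 and near 0 in most other clusters. Levels are given per plate as the mean CPM of that cluster's neurons, where the plate held at least 2 of them. Hpse measured 12.6, 28.9, 18.6, 24.6 and 19.5 CPM in cluster 1 on plates 1 to 5, a mean of 20.8 ± 6.21 (SD, n = 5 plates). No plate of clusters 2 to 5 exceeded 6.18 CPM, so that the groups did not overlap.

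Agpat4 measured 29.8, 48.3, 49.0, 23.0 and 27.3 CPM in cluster 1 on the same plates, a mean of 35.5 ± 12.3 (SD, n = 5). Plates 2 and 3 were the highest, and the lowest plate still lay above the highest plate of clusters 2 to 5, which had 6.48 CPM. A single cluster 3 neuron on plate 1, with 1 UMI and 66.0 CPM, is not in these means. None of the 31 neurons of cluster 5 had a UMI of Agpat4, which allows a share of up to 9.68% of neurons with a UMI, and the same was true of the 42 adult neurons without a cluster number, which allows up to 7.14%. Such limits are on detection, and a neuron can express a gene and show no UMI.

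Colq measured 18.8, 25.7, 11.3, 11.4 and 5.26 CPM in cluster 1, a mean of 14.47 ± 7.87 (SD, n = 5). Plates 1 and 2 were above plates 3 to 5, a pattern not seen for Hpse or Agpat4. Cluster 2, on plates 1 and 2 only, had 9.68 and 8.54 CPM from 3 UMIs in 15 neurons, which is above the 5.26 CPM of cluster 1 on plate 5. Over all plates 2 of the 3 genes did not overlap between cluster 1 and clusters 2 to 5, as did 0.385% of the 11939 genes of the stage fit. Matched by plate, a comparison added after seeing the data, Colq was higher in cluster 1 than in any other cluster of the same plate on all 5 plates, the highest others being 9.68, 8.54, 4.58, 2.31 and 0 CPM. The same held for Hpse and Agpat4, and for 1.32% of the 11939 genes. The genes were chosen as markers of this cluster, so that this is a description and no test was made.

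At p12 the same 3 genes were high in clusters 2 and 5, which had 8 neurons each. Hpse measured 47.4 and 76.3 CPM in cluster 2 (plates 1 and 2) and 39.4 and 76.6 CPM in cluster 5 (plates 3 and 4). Every one of the 16 neurons had a UMI of Hpse. These 4 plate values all lay above the highest adult plate of cluster 1, 28.9 CPM.

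Agpat4 was at 70.2 and 44.2 CPM in p12 cluster 2 and at 18.7 and 24.2 CPM in cluster 5. Cluster 2 was higher than cluster 5 on every plate, but as no plate held both, cluster and plate cannot be told apart. Colq was at 17.6 and 18.1 CPM in cluster 2 and 13.9 and 13.4 CPM in cluster 5, on 5 to 11 UMIs per cluster. Both clusters fell within the range of adult cluster 1 for Colq.

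The other p12 clusters were low. Cluster 3, on plates 1 and 2, had 8.55 and 4.80 CPM of Hpse, 8.86 and 1.54 CPM of Colq and 2.78 and 6.06 CPM of Agpat4. In clusters 1 and 4, with 63 and 58 neurons, Hpse was at most 3.19 CPM, Colq at most 1.16 CPM and Agpat4 at most 3.63 CPM on any plate. All 3 genes had clusters 2 and 5 above clusters 1, 3 and 4 on every plate, as did 2.23% of the 11939 genes, and no test was made of this either.

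**Figure D1:**
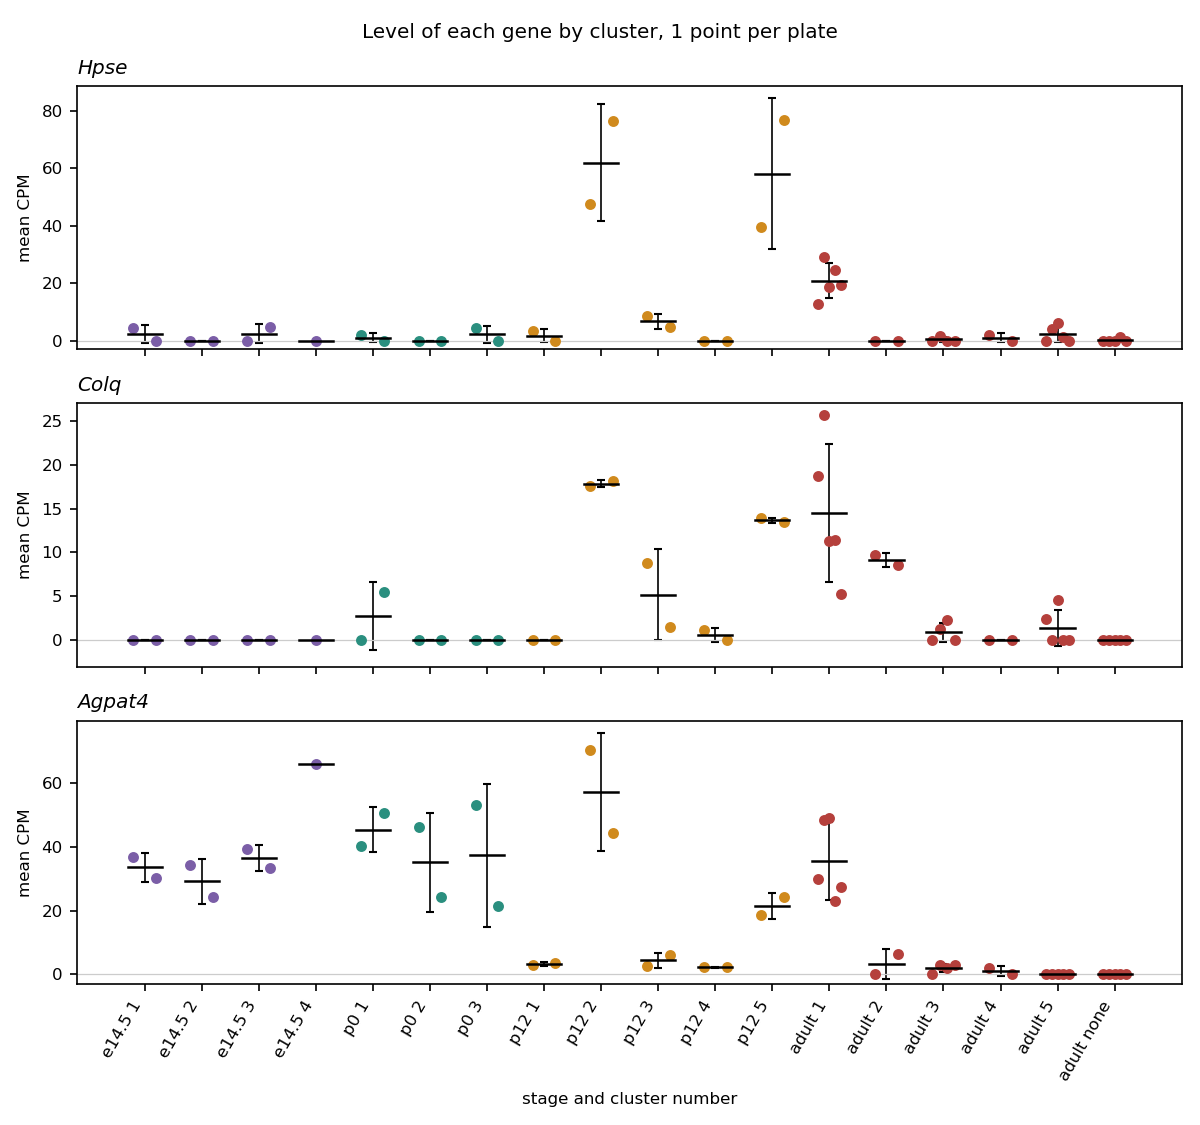
Mean CPM of Hpse, Colq and Agpat4 (vertical axes, 1 panel each) in each cluster of each stage and in the adult neurons without a cluster number (horizontal axis). Each point is a plate with at least 2 neurons of the cluster, the line is the mean over plates and the bar its SD. Hpse and Colq stand out in p12 clusters 2 and 5 and adult cluster 1, and Agpat4 also in every cluster at e14.5 and p0.

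Before p12 the genes parted. Agpat4 was broad: at e14.5 clusters 1 and 2 had 24.2 to 36.7 CPM per plate and cluster 3 had 33.4 to 39.3 CPM. At p0 all 3 clusters had 21.4 to 53.2 CPM. It had a UMI in 42 of 55 p0 neurons, 76.4% (95% exact interval 63.0 to 86.8%, counting error only), and in 53 of 169 e14.5 neurons, 31.4% (24.5 to 38.9%). The lowest of these plates lay above the highest plate of adult clusters 2 to 5, as was so for 2.53% of the 11939 genes but not for Hpse or Colq. Cluster 4 of e14.5 had 66.0 CPM on 1 plate, from 3 UMIs in 5 neurons. Clusters 3 and 4 of e14.5 are those that the paper proposes are not proprioceptors. Summed over Pvalb, Runx3, Ntrk3, Etv1 and Whrn, they were at 713 and 665 CPM. Clusters 1 and 2 of e14.5 were at 1844 and 2054 CPM.

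Hpse was scarce at the early stages, with 2 UMIs in 169 neurons at e14.5 and 3 UMIs in 55 neurons at p0. Colq had none at e14.5 and 3 UMIs at p0, all in cluster 1 of plate 2. The 0 at e14.5 allows up to 1.78% of neurons with a UMI (exact 95% limit 2.16%). With all UMIs pooled, it allows a level of up to 1.95 CPM (exact 95% limit). At p0 the highest cluster on any plate had 4.21 CPM of Hpse and 5.52 CPM of Colq, against 39.4 and 13.4 CPM in the lowest plate of p12 clusters 2 and 5. The pooled limit at e14.5 lies below the 14.47 CPM of Colq in adult cluster 1. It is a limit on the mean over e14.5 neurons, and at their depth few single neurons with that level would show a UMI.

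Ordered over all 17 numbered clusters, Hpse was highest in p12 cluster 2 (61.9 ± 20.4 CPM, SD, n = 2 plates) and p12 cluster 5 (58.0 ± 26.3, n = 2), which overlapped each other. Adult cluster 1 came next, below both on every plate, and then p12 cluster 3 (6.68 ± 2.65, n = 2), below adult cluster 1 on every plate. From the fifth place on, each cluster overlapped its neighbour and none had a mean above 2.34 CPM. For Colq, p12 cluster 2 (17.8 ± 0.376, n = 2), adult cluster 1 and p12 cluster 5 (13.7 ± 0.326, n = 2) overlapped in turn, and adult cluster 2 (9.11 ± 0.806, n = 2) followed.

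For Agpat4 the first 9 places, from e14.5 cluster 4 to e14.5 cluster 2 (29.2 ± 7.001, n = 2), formed 1 run in which each cluster overlapped the next. It held p12 cluster 2 (57.2 ± 18.4, n = 2), all p0 clusters and adult cluster 1. P12 cluster 5 (21.4 ± 3.93, n = 2) came next. Its plates, at 18.7 and 24.2 CPM, lay just below those of e14.5 cluster 2. They overlapped adult cluster 1 (lowest plate 23.0 CPM), p0 cluster 2 (24.1 CPM) and p0 cluster 3 (21.4 CPM). The remaining 7 clusters had means of 4.42 CPM or less. All of these 7 were p12 or adult clusters. Agpat4 was low there and not absent, with a UMI in 3 of 17 neurons of p12 cluster 3 and 5 of 41 neurons of adult cluster 3, and it was 0 only in adult cluster 5 among numbered clusters.

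Between stages, with the UMIs of the kept neurons summed per plate, Hpse rose from p0 to p12 and neither Colq nor Agpat4 passed the test in any contrast. In such sums, fewer cells of a type and less RNA per cell cannot be told apart. The plate means over kept neurons were 1.89 and 0 CPM of Hpse at p0 and 24.7, 21.3, 4.58 and 2.47 CPM at p12. All 4 p12 plates lay above both p0 plates, the highest being plates 1 and 2, where cluster 2 makes up 5 of 12 and 3 of 13 kept neurons. The rise was 3.55 ± 0.92 on the log2 scale (fitted value and SE, adjusted p = 0.0152, edgeR quasi-likelihood test over all genes).

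As p0 held only 3 UMIs of Hpse, against 61 at p12, the ratio of pooled levels was 9.86 with a 95% counting interval of 3.22 to 49.2. Without p0 plate 1 the adjusted p was 0.0533 and without p0 plate 2 it was 0.127, where p0 is 1 plate that is assumed to vary like the other groups. With only the 2 stages fitted the rise was 3.51 (adjusted p = 0.0672). Taking p12 plates 3 and 4 alone the rise was 2.30 (adjusted p = 0.0470), and with plates 1 and 2 alone it was 4.38 (adjusted p = 0.000616). In this contrast 18.1% of the 11939 tested genes were called, 9.1% higher and 9.01% lower.

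Agpat4 had plate means of 43.3 and 40.1 CPM at p0 and of 30.9, 14.9, 3.87 and 3.84 CPM at p12. Every p12 plate was lower than both p0 plates, but the fitted change of -1.49 ± 0.53 on the log2 scale missed the threshold (adjusted p = 0.0628). Without p12 plate 1 it was -2.17 (adjusted p = 0.00600). On p12 plates 3 and 4 alone it was -2.75 (adjusted p = 0.000803), and on plates 1 and 2 alone it was -0.64 (adjusted p = 0.313). The p12 plates that hold cluster 2 and those that hold clusters 1, 4 and 5 thus gave different values, and plate set and cluster cannot be told apart.

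Colq had plate means of 0 and 3.45 CPM at p0 and 12.5, 5.36, 1.92 and 0.433 CPM at p12, which overlap. The fitted change was 1.89 ± 1.19 on the log2 scale (adjusted p = 0.302), from 3 and 21 UMIs. From e14.5 to p0, where 27.8% of tested genes were called, 14.7% higher and 13.1% lower, 0 of the 3 passed, and 0 had an unadjusted p under 0.05 or passed in DESeq2. In edgeR the adjusted p was 0.811 for Agpat4 (0.23 ± 0.58 on the log2 scale), 0.940 for Hpse and 0.342 for Colq, with these last 2 genes resting on 3 UMIs or fewer per stage.

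From p12 to the adult 0 of the 3 genes passed the edgeR test, 0 had an unadjusted p under 0.05 and 0 passed in DESeq2, where 14.1% of tested genes were called in edgeR, 7.57% higher and 6.56% lower. The adult plate means were 4.397, 7.30, 6.03, 6.70 and 2.92 CPM for Hpse, 6.49, 7.58, 3.83, 3.60 and 0.789 CPM for Colq and 10.6, 12.3, 13.7, 6.43 and 5.12 CPM for Agpat4. For each gene the p12 plates spread on both sides of the adult plates. The fitted changes on the log2 scale were -0.94 ± 0.48 for Hpse (adjusted p = 0.196), 0.35 ± 0.67 for Colq (adjusted p = 0.762) and 0.11 ± 0.45 for Agpat4 (adjusted p = 0.898), whose direction turned in DESeq2.

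Which p12 plates entered decided these values. Against p12 plates 1 and 2 alone, adult Hpse was lower by -1.77 on the log2 scale (adjusted p = 0.0159), and against plates 3 and 4 alone the value was 0.32 (adjusted p = 0.626). Adult Agpat4 was higher by 1.38 against plates 3 and 4 alone (adjusted p = 0.0263), and the value against plates 1 and 2 alone was -0.74 (adjusted p = 0.287). Leaving out single p12 plates moved Colq from -0.04 to 1.04 and Agpat4 from -0.22 to 0.80, the upper values without p12 plate 1, and none of these passed.

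**Figure D2:**
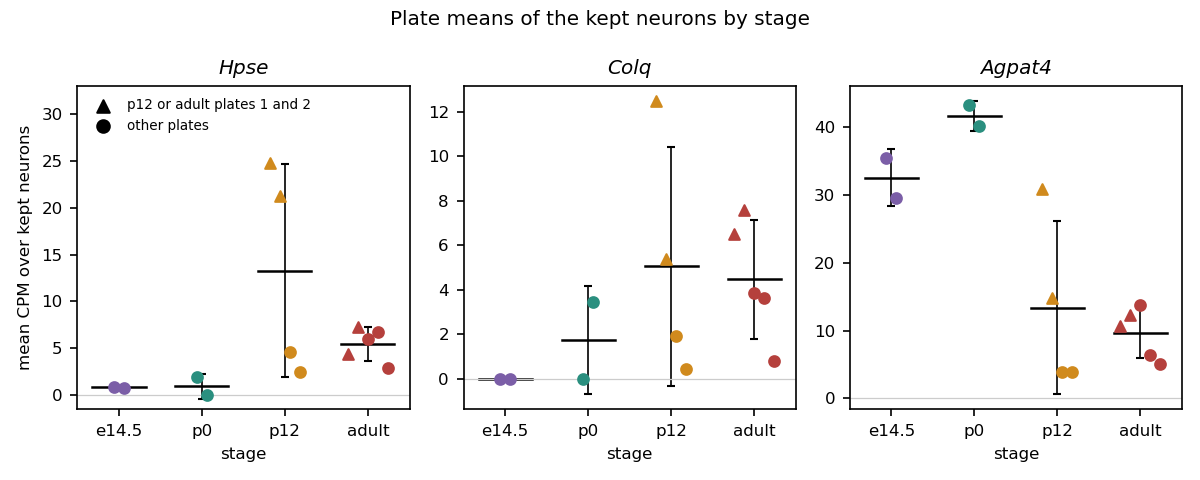
Mean CPM over the kept neurons of each plate (vertical axes) by stage (horizontal axes), 1 panel per gene, with the mean over plates as a line and its SD as a bar. Triangles are plates 1 and 2 of p12 and of the adult, the p12 pair holding other clusters than plates 3 and 4 and the adult pair being the only adult plates with clusters 2 and 4. The p12 plates of Hpse fall into a high pair (24.7 and 21.3) and a low pair (4.58 and 2.47).

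The share of neurons with a UMI was compared between the adult and p12 after thinning each neuron to 7000 UMIs, which left out 2 shallower p12 neurons. The thinned share of Hpse was 3.39 ± 2.93% in the adult (SD, n = 5) and 1.92 ± 2.86% at p12 (n = 4). It was 2.79 ± 3.19% and 7.04 ± 12.0% for Colq, and 6.23 ± 4.70% and 5.55 ± 3.09% for Agpat4. No difference passed a two-sided exact permutation test (p = 0.476, 0.730 and 0.825, each 0.825 after adjustment over the 3 genes), whose smallest possible p is 0.0159. Unthinned, the adult shares were 20.7 ± 4.50%, 16.7 ± 6.63% and 21.4 ± 4.31%, and the p12 shares were 31.6 ± 30.0%, 18.1 ± 18.2% and 23.1 ± 15.9%, so that the order of the stages turned for Hpse and Agpat4. At 7000 UMIs so few neurons keep a UMI that only a large difference was detectable.

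In single neurons the 3 genes were detected together almost only in the clusters where each was high. In adult cluster 1, 36 of 51 neurons had a UMI of Hpse (70.6%), 30 of Colq (58.8%) and 38 of Agpat4 (74.5%). Of these 51 neurons, 17 had all 3 genes, 22 had 2, 9 had 1 and 3 had none. The most common pair without the third was Hpse with Agpat4, in 12 neurons. All 3 were found in 4 of 15, 4 of 12, 4 of 11, 4 of 10 and 1 of 3 neurons on plates 1 to 5.

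Of the 41 adult neurons with at least 2 of the genes, 39 were in cluster 1, with 1 each in clusters 3 and 4. Of the 157 other adult neurons, 135 had none and 20 had 1, and 2 had at least 2 (1.27%, exact interval 0.155 to 4.53%). The product of the 3 shares times 51 is 15.8 neurons, near the 17 observed within cluster 1, and no test was made of this.

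At p12, all 16 neurons of clusters 2 and 5 had at least 2 of the genes, and 5 had all 3: 4 in cluster 2 and 1 in cluster 5. Among the other 138 p12 neurons, 2 had at least 2 genes, both in cluster 3 on plate 2. At p0 3 of 55 neurons and at e14.5 1 of 169 had at least 2, and none had all 3. Agpat4 alone was found in 39 p0 neurons and 52 e14.5 neurons.

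Depth moved with detection. The median was 59922 UMIs in adult cluster 1 and 57694 in cluster 5, against 20138 to 35599 in clusters 2 to 4, and it was 74067 and 49217 in p12 clusters 2 and 5 against 16185 to 46967 in the other p12 clusters. In adult cluster 5, which had nearly the depth of cluster 1, 5 of 31 neurons had a UMI of Hpse, 2 of Colq and none of Agpat4. Thinned to 7000 UMIs, 43.1% of neurons of adult cluster 1 and 3.82% of the other adult neurons kept a UMI of at least 1 gene, and at p12 these shares were 56.3% in clusters 2 and 5 and 2.94% in the rest. At least 2 of the genes were then found in 0 of 51 neurons of adult cluster 1, as in 0 of the 157 others. At p12 they were found in 3 of 16 neurons of clusters 2 and 5 against 0 of 136. All 3 of these neurons were in cluster 5 (3 of 8), with 0 of 8 in cluster 2. Joint detection in the adult and in p12 cluster 2 was thus not detectable at 7000 UMIs.

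**Figure D3:**
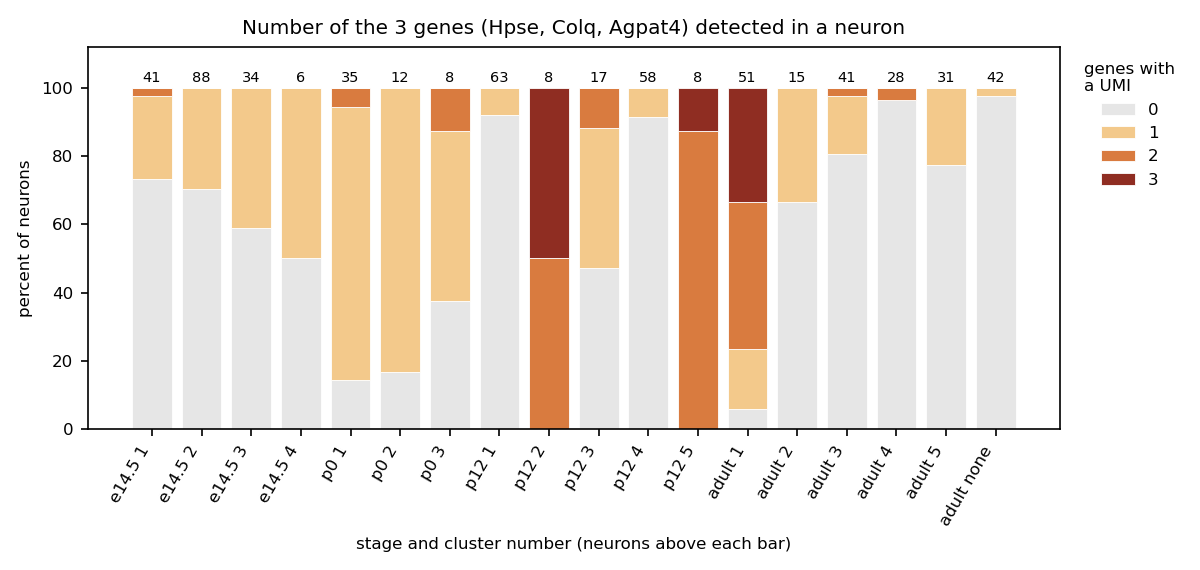
Percent of neurons (vertical axis) with a UMI of 0, 1, 2 or 3 of the genes Hpse, Colq and Agpat4, in each cluster (horizontal axis, number of neurons above the bar), unthinned. All 3 were found in 33.3% of neurons of adult cluster 1, 50% of p12 cluster 2 and 12.5% of p12 cluster 5, and in no neuron of any other cluster.

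The levels of the genes were correlated across all adult neurons, with no clear relation within cluster 1. Over all kept adult neurons of a plate, Pearson r of log CPM between Hpse and Agpat4 averaged 0.61 ± 0.06 (SD, n = 5 plates), that between Colq and Agpat4 0.48 ± 0.13 and that between Hpse and Colq 0.45 ± 0.13. Within cluster 1 the means were -0.01 ± 0.60, 0.05 ± 0.39 and -0.08 ± 0.53, on 3 to 15 neurons a plate. They rest on plate 5 with its 3 neurons, and without it, a choice made after seeing the data, they were 0.23 ± 0.27, -0.12 ± 0.13 and 0.10 ± 0.39 (n = 4). Neurons of a plate share a library, their depths differ and most values rest on a few UMIs, so these are given as a description.

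Calb2, which encodes the calcium-binding protein calretinin and which the study also used to mark adult cluster 1, was found more often in neurons with each of the 3 genes over all adult neurons. In the adult it had a UMI in 26 of 44 Hpse-positive neurons (59.1%) and in 24 of 164 Hpse-negative ones (14.6%). For Colq the shares were 60.5% and 15.9%, and for Agpat4 54.3% and 15.4%. Within cluster 1 the shares were closer, 63.9% of Hpse-positive and 60% of Hpse-negative neurons, 70.0% and 52.4% for Colq and 65.8% and 53.8% for Agpat4. Outside it Calb2 was in 3 of 8 Hpse-positive neurons against 10.1% of 149 negative ones, in 2 of 8 against 10.7% for Colq and in 0 of 8 against 12.1% for Agpat4. At p12 all 16 neurons of clusters 2 and 5 had Calb2. Of the 41 adult neurons with at least 2 of the genes, 26 had a UMI of Calb2.

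Slc17a6, the vesicular glutamate transporter VGLUT2, and Calb1, the calcium-binding protein calbindin, were likewise found more often with Hpse than without it in the adult, in 90.9% against 35.4% and 84.1% against 44.5%. Within cluster 1 the shares were 97.2% against 80.0% for Slc17a6 and 91.7% against 93.3% for Calb1. Pcdh8, a protocadherin that the study assigned to cluster 5, had a UMI in 34.1% of Hpse-positive and 42.7% of Hpse-negative adult neurons, in 21.1% and 45.3% for Colq and in 23.9% and 45.7% for Agpat4. Among the remaining cluster 5 markers (Pou4f3, Chad, Itga2 and Pcdh17), Pou4f3 and Chad were also less frequent in adult neurons with each of the 3 genes, whereas Itga2 (6.82% against 4.88%) and Pcdh17 (20.5% against 18.3%) were slightly more frequent with Hpse. Within cluster 1, Itga2 was in 0 of 36 Hpse-positive neurons and Pcdh17 in 3, each against 0 of 15 negative ones. Outside it they were in 3 and 6 of 8 Hpse-positive neurons, against 5.37% and 20.1% of negative ones. At p12 these 4 were more frequent with each gene, as Pou4f3 was in 34.8% of Hpse-positive and 5.34% of Hpse-negative neurons, and Pcdh8 was less frequent with each. These neurons were clustered on the same counts, so that no test was made.

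**Figure D4:**
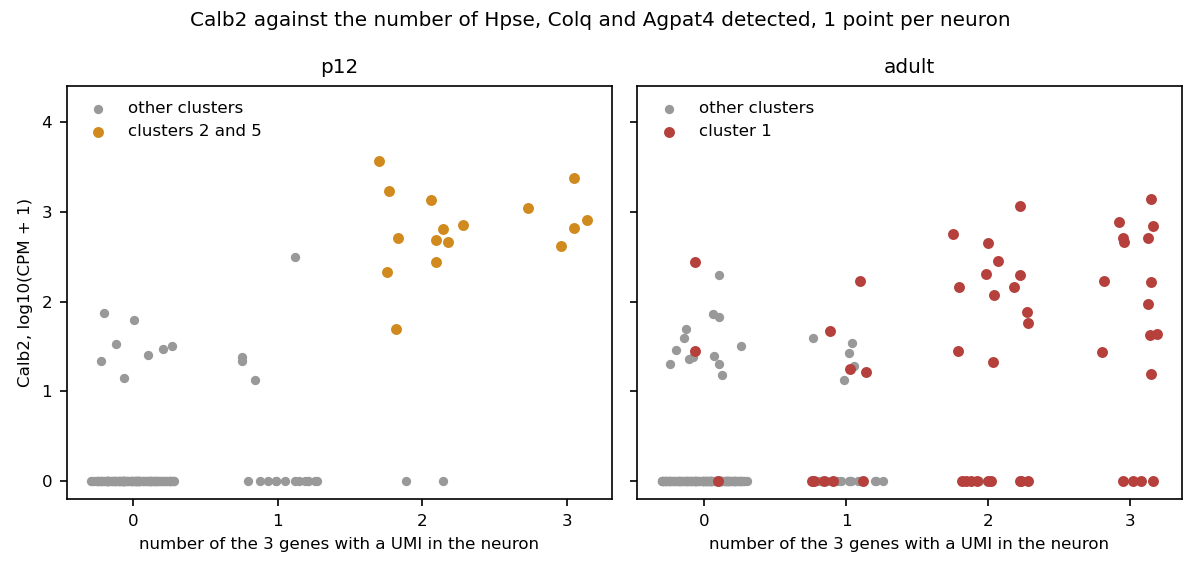
Calb2 level, log10(CPM + 1) (vertical axis), against the number of Hpse, Colq and Agpat4 with a UMI (horizontal axis, points spread sideways for display), 1 point per kept neuron at p12 (left) and in the adult (right). Coloured points are p12 clusters 2 and 5 and adult cluster 1, grey points all others. The 16 coloured p12 neurons all have Calb2 and at least 2 of the genes, while 19 of 51 neurons of adult cluster 1 have no Calb2 UMI.

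The wells that the annotation left out gave a view of the genes in cells that had no part in the clustering. Among left-out wells with UMIs of at least 2000 genes, 92 at p0, 216 at p12 and 242 in the adult, Apoe was at 1913 to 9539 CPM per plate, Pvalb was at 1525 to 3357 CPM and the part of this glial RNA in the values was not tested. Agpat4 had a UMI in 65.2% of them at p0, 26.9% at p12 and 15.3% in the adult. Hpse was found in 3.26%, 12.5% and 7.02%, and Colq in 1.09%, 14.4% and 8.26%.

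Split by Calb2, in a comparison added after seeing the data, the left-out wells differed. At p12, 24 of 38 wells with at least 2 UMIs of Calb2 had Hpse (63.2%), against 1 of 140 wells with none (0.714%). For Colq it was 57.9% against 2.86% and for Agpat4 73.7% against 13.6%. In the adult, 50% of 16 such wells had Hpse against 4.41% of 204, with 56.3% against 4.90% for Colq and 75.0% against 11.3% for Agpat4. By plate, mean CPM was higher with Calb2 for Hpse on 3 of 3 p12 and 4 of 5 adult plates. For Colq it was higher on 2 of 3 and 4 of 5, and for Agpat4 on 2 of 3 and 5 of 5. On adult plate 2, with 4 such wells, Hpse was at 0 in both groups and Colq was at 6.10 against 8.07 CPM. Median depth moved with this split, from 44929 to 83454 UMIs on p12 plate 1 and from 38033 to 69101 UMIs on p12 plate 2, which together held 37 of the 38 p12 wells. On adult plate 1 the medians were 21006.5 and 88294.5 UMIs, and the part of depth was not tested. At least 2 of the genes were found in 25 of the 38 p12 wells and in 0 of the 140, and in 11 of the 16 adult wells and in 3 of the 204.

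By Pearson r of log2(CPM + 1) over the 17 cluster means, among 8858 genes with at least 20 CPM in some cluster, the 5 genes most like each of the 3 were named. For Hpse they were Myh4 (r = 0.90), Calb2 (0.85), Cryba2 (0.82), Ntrk3 (0.80) and Tjp1 (0.77). Myh4, a muscle myosin heavy chain, was at 21.7 CPM in p12 cluster 2, 8.65 CPM in p12 cluster 5 and 4.59 CPM in adult cluster 1 and at most 1.48 CPM in any other cluster. For Colq they were B3galt2 (0.90), Calb2 (0.89), Lcp2 (0.87), Nefm (0.87) and Tgfbr2 (0.86), and B3galt2, a galactosyltransferase, was at 52.4 and 27.9 CPM in p12 clusters 2 and 5 and 21.97 CPM in adult cluster 1. Myh4, Tjp1 and Tgfbr2 reached 20 CPM only in p12 cluster 2 or 5, and Calb2 and B3galt2 only there and in adult cluster 1. These are the clusters where Hpse and Colq were high, so that the 20 CPM limit in part set the likeness of these genes.

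For Agpat4 they were Slc17a6 (0.91), Tes (0.90), Chrna4 (0.88), Abhd17c (0.88) and Astn1 (0.84). Slc17a6 was at 55.8 to 146 CPM in every e14.5 and p0 cluster, at 145 and 74.0 CPM in p12 clusters 2 and 5 and 74.1 CPM in adult cluster 1, and at 6.72 to 13.8 CPM in the other adult clusters. In p12 cluster 3, where Agpat4 was at 4.42 CPM, Slc17a6 was still at 52.5 CPM, and it was at 26.3 and 19.0 CPM in p12 clusters 1 and 4. Among themselves, Hpse and Colq had r = 0.74, Hpse and Agpat4 0.26 and Colq and Agpat4 0.07. The clusters share plates and stages, and by Spearman rho 0 of the 5 genes named for Hpse, 1 of those for Colq and 3 of those for Agpat4 were again among the first 5.

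Genes that work on the same substrates were taken from 5 lists of 88 genes in all, of which 55 were tested in the stage fit. Hpse, Colq and Agpat4 are themselves in these lists and counts, and Hpse is among the genes called higher from p0 to p12. From p0 to p12, 10 were called higher and 7 lower, 30.9% of the 55, beside 18.1% of all tested genes. From p12 to the adult, 4 were called higher and 1 lower, 9.09%, beside 14.1% of all. From e14.5 to p0, 16 were called higher and 2 lower, 32.7%, beside 27.8% of all. These counts moved with the calls over all genes. Without p0 plate 1 the first count was 4 while calls over all genes fell from 2162 to 888, and without p0 plate 2 it was 6 with 884 calls. The second was 10 against p12 plates 3 and 4 alone and 3 against plates 1 and 2 alone, where calls over all genes went from 1687 to 3070 and 529.

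Single plates decided many of the calls named next. With each plate left out in turn, Agpat3, Hspg2, Lpin1 and Sdc3 were called every time from p0 to p12, and Cds2, Lpin1 and Sulf2 from p12 to the adult. All other calls of these 2 contrasts were lost without at least 1 plate, and the 6 calls for synthesis genes ranged from 0 to 6.

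Of the 7 tested heparan sulfate degradation genes, Hpse was the 1 higher and Gusb, the lysosomal beta-glucuronidase, the 1 lower from p0 to p12 (median -0.04 on the log2 scale, against 0.02 over all tested genes). Sulf2, which removes sulfate groups from heparan sulfate, fell by 0.96 on the log2 scale from p12 to the adult (adjusted p = 0.00719). Hpse2, the relative of heparanase that lacks its activity, was at 0 CPM in every p12 and adult cluster. Of the 18 tested synthesis genes 3 were higher and 3 lower from p0 to p12 (median 0.20), among them Extl2 (1.505, adjusted p = 0.00684) and Ndst4 (0.93, adjusted p = 0.0141) upward and Ext1 (-1.40, adjusted p = 0.0230) and Ndst3 (-1.24, adjusted p = 0.0339) downward. Hs3st5 and Hs2st1 were the other calls, and from p12 to the adult B3gat3 alone was called (0.50, adjusted p = 0.0337).

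Of the 6 tested proteoglycan genes, Hspg2 rose and Sdc3 fell from p0 to p12. Hspg2, which encodes perlecan, went from 3 UMIs at p0 to 40 at p12, a ratio of 6.47 (95% counting interval 2.06 to 32.7, adjusted p = 0.00281), and Sdc3, the neuronal syndecan, changed by -2.28 (adjusted p = 7.08e-05). In the adult, Hspg2 was at 10.4 ± 7.03 CPM in cluster 1 (SD, n = 5), 23.8 ± 4.78 in cluster 2 (n = 2) and 18.6 ± 7.04 in cluster 3 (n = 4), and was thus not highest where Colq was.

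Ache, the acetylcholinesterase that the Colq tail carries, was the only call among the 4 tested cholinergic genes from p0 to p12 (0.71, adjusted p = 0.0187), and this call was lost without either p0 plate (adjusted p of up to 0.179). It was high in every cluster: 118 to 211 CPM in the p12 clusters and 146 to 200 CPM in the numbered adult clusters, with 155 ± 16.9 CPM in adult cluster 1. Bche and Prima1, the second cholinesterase and the membrane anchor of acetylcholinesterase in brain, were too low to test, and Prima1 was at most 0.248 CPM in any p12 or adult cluster.

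Of the 20 tested glycerolipid genes, 4 were higher and 2 lower from p0 to p12 (median 0.22), and 3 were higher from p12 to the adult (median 0.10, against 0.04 over all tested genes). Lpin1, a phosphatidate phosphatase, rose in both steps (2.23, adjusted p = 0.000983, then 1.11, adjusted p = 0.00769), as did Cds1 and Cds2, which make CDP-diacylglycerol from phosphatidic acid. Of the other acyltransferases of Agpat4's family, Agpat3 rose from p0 to p12 (1.65, adjusted p = 0.000760), Agpat1 and Agpat5 passed in none of the 3 contrasts and Agpat2 was too low to test. Agpat3 measured 105 ± 16.9 CPM in adult cluster 1 and 77.2 to 100.7 CPM in clusters 2 to 5, and Agpat5 96.4 ± 28.7 CPM and 94.0 to 129 CPM. Lpcat3 and Mboat7, which act on other lysophospholipids, were the 2 lower calls.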

How the data were processed

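Plate-seq libraries were aligned by the authors with STAR to mm10 (GRCm38), each read was assigned to its well, and reads with the same UMI were counted 1 time. The STAR version and the use of strand in counting are not given in the sources used here, so that reads of overlapping genes (Gm49387 at Colq) cannot be told apart. The deposited values are raw UMI counts per gene and well, and no count column of another series was present. Kept neurons and their clusters come from the authors' annotation, which was made on these neurons.

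CPM was computed per neuron, averaged over the neurons of a group on a plate, then over plates. For stage contrasts the UMI counts of kept neurons were summed per plate and tested with edgeR 4.0.16 (quasi-likelihood, TMM, filterByExpr, all 13 plates in 1 fit, Benjamini-Hochberg adjusted p under 0.05, R 4.3.3), and DESeq2 1.42.0 was an alternative. In simulated adult against p12 counts (11062 genes, 188 of them changed) the fit recovered 65.4% of the changed genes and 6.11% of its calls were false. Shares were compared after thinning to 7000 UMIs (1 random draw) by exact permutation over plates. Intervals are exact (95%) and cover counting error only. The limit that a count of 0 allows is 3 neurons. Groups were taken from the sample labels, and no sample was left out. The 3 genes, the lists and the tests were chosen with earlier results of these data known. Named were the 3 genes, per list up to 6 called genes with the largest change from p0 to p12 or p12 to the adult, their direct partners, the marker genes and the 5 most alike genes.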

Additional observations from a re-analysis of the deposited data

Results flagged for a closer look

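Of 15 sets of 4 or 5 plate values examined, 1 held a plate far from the others, where chance would give about 1 in 20. At p12 the thinned share of neurons with a UMI of Colq was 25% on plate 1 and 0 to 1.64% on plates 2 to 4. Plate 1 had 12 kept neurons, all of clusters 2 and 3.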

How the results depend on the processing

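Of 572 alternative values for 50 results, 440 kept their direction and their side of the threshold, 98 moved by more than the spread or by over 1.5 times, 10 crossed the threshold and 24 turned direction. The cause was not tested. None of these 24 passed the test under either setting. With neurons thinned to 7000 UMIs, fewer genes were tested and 1548, 665 and 705 genes were called from e14.5 to p0, p0 to p12 and p12 to the adult, with 9, 5 and 2 pathway genes. Leaving out 1 plate gave 1455 to 1964, 884 to 2191 and 787 to 1960 genes, and 10 to 13, 4 to 16 and 3 to 6 pathway genes. From p12 to the adult, p12 plates 3 and 4 alone gave 3070 genes and 10 pathway genes, p12 plates 1 and 2 alone 529 and 3, and pathway genes numbered 8 with numbered clusters, 9 with all wells, 3 with only 2 stages fitted and 3 with adult plates 3 to 5 alone. Choices that split plates or the left-out wells were made after seeing the data.

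From p0 to p12, Hpse was at 3.51 (log2, adjusted p = 0.0672) with only 2 stages fitted and 2.82 to 7.39 without 1 plate. Agpat4 was called at -1.47 without a filter, -2.60 thinned, -1.47 with all wells and -2.75 with p12 plates 3 and 4 alone, and ranged from -2.17 to -1.15 without 1 plate. From p12 to the adult, Hpse was called at -1.77 against p12 plates 1 and 2 alone and turned to 0.32 against plates 3 and 4. Agpat4 was called at 1.38 against p12 plates 3 and 4 and turned to -0.017 in DESeq2, -0.048 with all wells, -0.74 against p12 plates 1 and 2 alone and -0.17 with adult plates 3 to 5 alone. Without 1 plate, Agpat4 ranged from -0.22 to 0.80 and Colq from -0.042 to 1.04, and from e14.5 to p0 Hpse ranged from -3.59 to 0.98 and Colq from 0 to 5.12, on 3 UMIs or fewer.

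The thinned share of adult minus p12 neurons with Hpse turned to -10.9 points unthinned, -0.327 at 4000 UMIs and -0.456 with p12 plates 3 and 4 alone. That of Colq turned to 1.22 with p12 plates 3 and 4 alone. That of Agpat4 turned to -1.74 unthinned, -4.35 at 4000 UMIs, -1.23 for at least 2 UMIs, -1.78 with p12 plates 1 and 2 alone and -0.781 with adult plates 1 and 2 alone. Without 1 plate, the difference ranged from 0.431 to 2.85 points for Hpse, -6.59 to 1.74 for Colq and -0.667 to 2.24 for Agpat4.

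Colq in p12 cluster 5 was 12.7 CPM from pooled UMIs. All 3 genes were found in 0% of adult cluster 1 thinned and in 11.8% at 2 UMIs of each, and at least 2 in 18.8% and 62.5% of p12 clusters 2 and 5. By Spearman rho 0, 1 and 3 of the 5 most alike genes of Hpse, Colq and Agpat4 were shared. No paired analysis was possible because the labels give plates no replicate numbers shared between stages. Clusters of 1 stage do share plates, and matching adult clusters by plate moved Colq to the genes highest in cluster 1 on every plate. Few UMIs per neuron limit the detection of all 3 genes.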
